A study of Rattus norvegicus with 5 samples.

Results

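Adipokines are proteins that fat tissue releases into the blood or to its neighbours. Their transcripts were followed in the mesenteric fat around the pancreas of rats fed either of 2 diets. A set of 9 genes was chosen by name: leptin (Lep), adiponectin (Adipoq), resistin (Retn), complement factor D or adipsin (Cfd), chemerin (Rarres2), visfatin (Nampt), retinol binding protein 4 (Rbp4), apelin (Apln) and angiotensinogen (Agt). Every probe set whose annotation gave exactly 1 of these symbols was taken, which gave 10 probe sets for 8 of the 9 genes, among 14217 named genes on the array. No probe set carried the symbol Retn alone, so resistin was not analysed here. Apln and Nampt had 2 probe sets each, and the other 6 genes had 1.

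The animals were male Wistar rats, 7 weeks old and weighing 225 to 250 g at the start. The 3 rats of the standard group ate chow with 8% of calories as fat, and the 2 rats of the cafeteria group ate a diet with 66% of calories as fat, in both cases for 30 days. RNA of each rat's fat was hybridised to an Affymetrix rat genome array of its own, and the labels call the samples independent. The values are log2 expression levels, so a difference of 1 is a doubling, and the levels of different probe sets are not compared because each has its own brightness. The whole piece of fat was measured, so fewer cells of a type and less RNA per cell cannot be told apart.

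Leptin is the hormone by which fat reports its mass to the hypothalamus, and adiponectin is a hormone of fat cells that raises insulin sensitivity in liver and muscle and whose blood level is usually low in obesity. Adipsin is the serine protease that starts the alternative pathway of complement. Chemerin attracts immune cells, retinol binding protein 4 carries vitamin A in blood, visfatin makes a precursor of NAD, apelin dilates vessels, and angiotensinogen is the precursor of the angiotensins.

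The promoter regions of Lep, Cfd and Adipoq are shown because their transcripts gave the largest difference upward, the largest difference downward and the reference for fat cell hormones. Each line gives the 250 bases before the RefSeq start site in build GRCr8, 5′ to 3′ on the strand of the gene. Capitals mark every match, on either strand, to short motifs of common promoter factors. The motif TTGCNNAA is bound by the C/EBP family of fat cell regulators, and TATAA is the core of the box that places the start of transcription. GGGCGG is bound by Sp1 and its relatives, and the letters CCAAT form the box named after them. The E-box, bound by several helix-loop-helix factors, was searched as CACGTG.
Lep (chr4:58626288-58626537, plus strand): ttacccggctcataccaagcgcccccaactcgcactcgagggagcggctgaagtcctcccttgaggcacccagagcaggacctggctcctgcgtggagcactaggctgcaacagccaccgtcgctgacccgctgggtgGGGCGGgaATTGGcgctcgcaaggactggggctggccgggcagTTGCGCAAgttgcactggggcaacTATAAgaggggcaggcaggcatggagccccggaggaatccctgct
Cfd (chr7:10465497-10465746, minus strand): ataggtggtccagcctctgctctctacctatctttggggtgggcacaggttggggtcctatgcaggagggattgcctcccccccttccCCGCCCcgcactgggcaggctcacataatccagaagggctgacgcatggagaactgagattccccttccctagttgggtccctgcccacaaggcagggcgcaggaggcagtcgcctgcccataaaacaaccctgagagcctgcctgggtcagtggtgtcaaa
Adipoq (chr11:91240170-91240419, minus strand): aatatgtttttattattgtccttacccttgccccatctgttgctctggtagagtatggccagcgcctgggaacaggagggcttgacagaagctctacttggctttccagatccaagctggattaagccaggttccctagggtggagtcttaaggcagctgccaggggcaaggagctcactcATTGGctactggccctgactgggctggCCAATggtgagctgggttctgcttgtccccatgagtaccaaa
In the Lep window 1 match to TTGCNNAA lay at -69 to -62 from the start site, 1 to TATAA at -45 to -41, 1 to GGGCGG at -112 to -107 and 1 to CCAAT, on the opposite strand, at -104 to -100. The Cfd window held 1 match, to GGGCGG at -162 to -157 on the opposite strand. The Adipoq window held 2 matches to CCAAT, at -69 to -65 on the opposite strand and at -42 to -38. No marked match overlapped another in these windows, and none held CACGTG. Among 33469 rat promoters of the same length, TTGCNNAA occurred in 9.22%, TATAA in 24%, GGGCGG in 30.5%, CCAAT in 34% and CACGTG in 5.59%. These letters describe the windows and were chosen after the sequences were seen. The promoter table had entries for 7 of the 9 genes, all but Nampt and Agt. The motifs were not particular to the windows printed. GGGCGG also had 4 matches in the Rbp4 window, 2 in Apln and 1 in Retn. TTGCNNAA and TATAA had 1 match each in Rbp4.

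The tissue carried strong signals of fat cells, with Fabp4 between 13.29 and 13.70 and perilipin 1 (Plin1) between 11.61 and 12.23 over the 5 arrays. A list of 25 fat cell genes that excludes the adipokines averaged 11.62 and 11.84 on the cafeteria arrays and 11.25 to 11.59 on the standard arrays, with 20 of the 25 higher in cafeteria samples. The array of standard replicate 1 held acinar transcripts of the pancreas: its mean over 21 acinar genes was 7.79, against 4.32 to 4.53 on the other 4 arrays. It also had the lowest fat cell mean, 11.25. Cafeteria samples read lower for 11 of 11 endothelial genes (list mean 8.36 and 8.85, against 8.99 to 9.11), for 12 of 12 macrophage genes (9.41 and 9.72, against 9.56 to 10.03) and for 10 of 10 T cell genes (5.08 and 5.62, against 5.62 to 6.09). For 9 of 12 smooth muscle and pericyte genes they read lower too (list mean 7.71 and 7.76, against 8.11, 7.48 and 8.99), and standard replicate 3 stood highest. They read higher for 8 of 10 fibroblast genes (11.32 and 11.39, against 11.06 to 11.17). Endocrine islet genes stayed between 3.94 and 4.03 in list mean on all arrays, below the array medians of 5.70 to 5.75. Of these lists, the fat cell genes were set against the adipokines array by array, and the acinar mean was used as a covariate, with which Lep differed by 1.69 and Cfd by -0.40. The part of the other lists was not tested.

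Lep gave the largest diet difference of the adipokines. It read 10.49 and 10.83 in cafeteria samples and 9.30, 9.14 and 8.77 in standard samples. The lowest cafeteria array lay 1.19 above the highest standard array, while the standard arrays spanned 0.53. The means were 10.66 ± 0.24 (SD, n = 2) and 9.07 ± 0.27 (SD, n = 3), which differ by 1.59 ± 0.20 log2 units (SE; 95% interval from 1.06 to 2.12), or 3.01-fold. Of the 21729 probe sets tested, 10 had a larger increase. After adjustment for all of them Lep stayed above the threshold (limma, unadjusted p = 0.00082, adjusted p = 0.222). Exact permutation of the arrays, two-sided, came to p = 0.1, and their 10 possible divisions can give no smaller value. Leaving out any array kept the difference between 1.42 and 1.76, and without standard replicate 1 it was 1.71.

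Adipoq hardly differed beside it. Its cafeteria values were 13.11 and 13.28 and its standard values 12.94, 13.09 and 13.08. Both cafeteria arrays lay above the standard arrays, but the gap was only 0.02. The means were 13.20 ± 0.12 (SD, n = 2) and 13.04 ± 0.08 (SD, n = 3), a difference of 0.16 ± 0.09 (SE) with an interval of -0.07 to 0.39 (limma, adjusted p = 0.497). A fall of Adipoq by more than 0.07 or a rise by more than 0.39 lies outside this interval. Without cafeteria replicate 1 the difference was 0.24, and without cafeteria replicate 2 it was 0.07.

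Cfd was the adipokine whose levels lay clearly lower in cafeteria samples. It read 13.15 and 13.31 there and 13.62, 13.59 and 13.67 in standard samples. The standard arrays were within 0.08 of each other, and the gap to the nearest cafeteria array was 0.28. The means were 13.23 ± 0.11 (SD, n = 2) and 13.63 ± 0.04 (SD, n = 3), a difference of -0.40 ± 0.07 (SE) with an interval of -0.59 to -0.21, or 1.32-fold lower. Cfd too stayed above the adjusted threshold (limma, unadjusted p = 0.0035, adjusted p = 0.252), with an exact permutation p at the minimum of 0.1, two-sided. With any array left out the difference stayed between -0.48 and -0.32. Cfd and Adipoq lay close to the brightest probe set of their arrays, by 0.26 to 0.77 and by 0.67 to 0.94 log2 units, and whether signal is compressed there was not tested.

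Rbp4 and Rarres2 read somewhat higher. The Rbp4 values were 12.49 and 12.55 in cafeteria and 12.06, 12.37 and 12.26 in standard samples. Its lowest value came from standard replicate 1, the array with acinar transcripts. The difference was 0.29 ± 0.11 (SE), with an interval of -0.0010 to 0.57 (limma, unadjusted p = 0.051, adjusted p = 0.397), and it was 0.20 without standard replicate 1. Rarres2 read 12.28 and 12.22 against 12.18, 12.12 and 12.08, so the arrays of the diets did not overlap and the gap was 0.04. Its difference was 0.12 ± 0.06 (SE), with an interval of -0.03 to 0.28 (limma, adjusted p = 0.464).

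Nampt and Apln gave overlapping arrays on both of their probe sets. The brighter Nampt probe set had the same value, 8.22, on both cafeteria arrays and on standard replicate 1, with 8.32 and 8.15 on the other 2 arrays. Such ties are common in this table: any pair of arrays shares 11.7% to 14.7% of its values exactly. Nampt differed by -0.0090 ± 0.07 (SE), with an interval of -0.19 to 0.17, and by 0.04 ± 0.12 on its dimmer probe set. Apln read 8.06 and 8.36 in cafeteria and 8.48, 8.26 and 8.42 in standard samples on its brighter probe set. The difference was -0.18 ± 0.12 (SE), with an interval of -0.51 to 0.15, and -0.05 ± 0.11 on the dimmer one. Cafeteria replicate 1 had the lowest Apln on both probe sets. Without it the differences were -0.03 and 0.10, and without cafeteria replicate 2 they were -0.33 and -0.20.

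Agt varied more within the standard group than between diets. Its values were 10.38 and 10.73 in cafeteria samples and 9.82, 10.64 and 11.02 in standard samples, so the standard arrays spanned 1.20. Standard replicate 1, the array with acinar transcripts and the lowest fat cell mean, had the lowest value. Standard replicate 3, the array with the highest smooth muscle mean, had the highest, and the part of that list in the Agt values was not tested. The difference of 0.06 ± 0.39 (SE) had an interval of -0.98 to 1.10 (limma, adjusted p = 0.951). A fall or a rise inside that interval is compatible with these arrays. Without standard replicate 1 the difference was -0.27, and without standard replicate 3 it was 0.33.

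**Figure D1:**
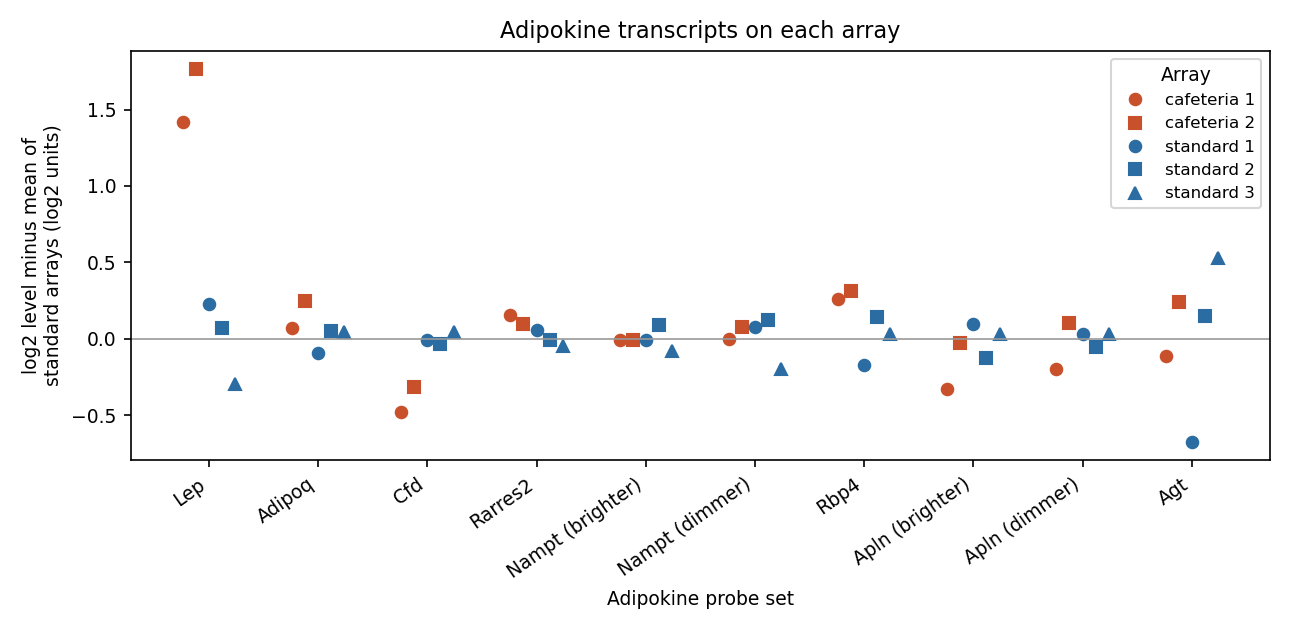
Each point is the log2 level of an adipokine probe set on 1 array minus the mean of the 3 standard arrays for that probe set, coloured by diet and shaped by replicate number. The Lep points of the cafeteria arrays stand at the top with no standard array near them, the Cfd points of the cafeteria arrays lie below all standard arrays, and the standard arrays of Agt span 1.20 log2 units.

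Over the 10 adipokine probe sets, all of which passed the filter on dim signals, 0 passed an adjusted p of 0.05, as did 0 of the 21729 probe sets tested (0% called, limma). At an unadjusted p under 0.05, 1 was higher (Lep) and 1 lower (Cfd), against 6.05% higher and 6.62% lower, 12.7% in all, over every probe set tested. The arrays of the diets did not overlap for 4 probe sets that were higher (Lep, Adipoq, Rarres2 and Rbp4) and 1 that was lower (Cfd). Over every probe set tested 13.3% were apart and higher and 14.1% apart and lower, 27.4% in all. The median difference of the 10 was 0.05, beside -0.0036 over every probe set tested. After Benjamini-Hochberg adjustment over the 10 exact permutation tests, the smallest p was 0.333.

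**Figure D2:**
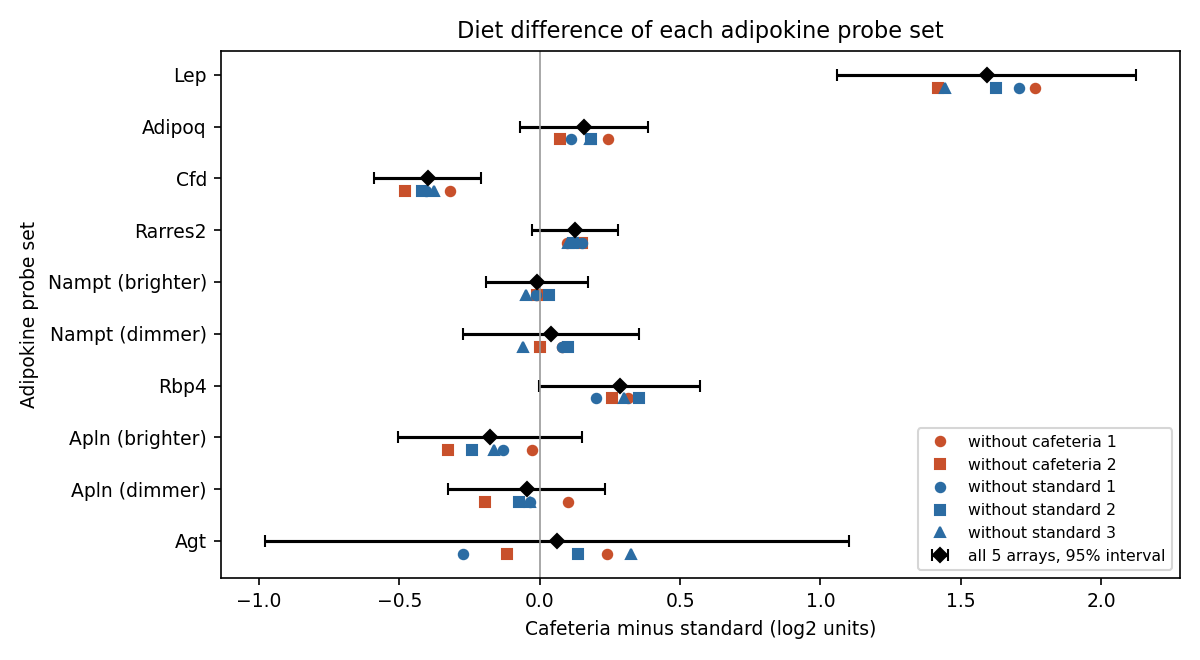
Diamonds give the difference between diets in log2 units for each adipokine probe set, with the 95% interval of the limma fit, and the coloured points beneath give the difference with 1 array left out. The intervals of Lep (1.06 to 2.12) and Cfd (-0.59 to -0.21) lie away from 0, while leaving out single arrays carries Agt from -0.27 to 0.33.

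Setting each adipokine against the 25 fat cell genes of the same array asks whether it moved apart from the mean of these transcripts. The genes did not all move together, with 20 higher and 5 lower in cafeteria samples. Plin4 gave 0.84, Mgll 0.77 and Gpd1 0.59, but Acaca -0.61, Acly -0.39, Fasn -0.25 and Slc2a4 -0.24. Their mean was 0.25 higher in cafeteria samples (exact permutation p = 0.3, two-sided). Its array values, relative to the standard group, were 0.14 and 0.36 against -0.23, 0.12 and 0.11. Relative to it, Lep remained higher by 1.34, with cafeteria values of 1.28 and 1.40 and standard values of 0.46, -0.05 and -0.41. Cfd was lower by 0.65 on this scale (difference -0.65), with cafeteria values of -0.62 and -0.68 and standard values of 0.22, -0.15 and -0.06. The arrays of the diets did not overlap for either gene. Both exact permutation tests, two-sided, gave p = 0.1, the smallest allowed (0.5 after Benjamini-Hochberg adjustment over 10 probe sets). The fat cell mean was higher on both cafeteria arrays than on any standard array, so subtracting it moves cafeteria values down. A transcript equal on all 5 arrays would come out apart and lower, by 0.25. The share of all probe sets apart on this scale was not computed.

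The difference of Adipoq against the same genes was -0.10, with cafeteria values of -0.07 and -0.12 and standard values of 0.13, -0.07 and -0.06 (exact permutation p = 0.4). Its cafeteria arrays also lay below all standard arrays on this scale, the nearest at -0.073 and -0.066. Rbp4 came to 0.03 and Rarres2 to -0.13, with overlapping arrays for both. Apln gave -0.43 on its brighter probe set and -0.30 on its dimmer one, with both cafeteria arrays below all standard arrays each time (exact permutation p = 0.2 for either). A transcript equal on all arrays would be apart and lower here too, and without the subtraction both Apln probe sets gave overlapping arrays. Being apart on this scale is therefore not a result about Apln. Nampt gave -0.26 and -0.21, and Agt -0.19, with overlapping arrays. Taking the median of the 25 genes in place of their mean gave 1.43 for Lep, -0.56 for Cfd and -0.0024 for Adipoq. With the median, exact permutation p rose to 0.2 for both Lep and Cfd, above the smallest value allowed.

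**Figure D3:**
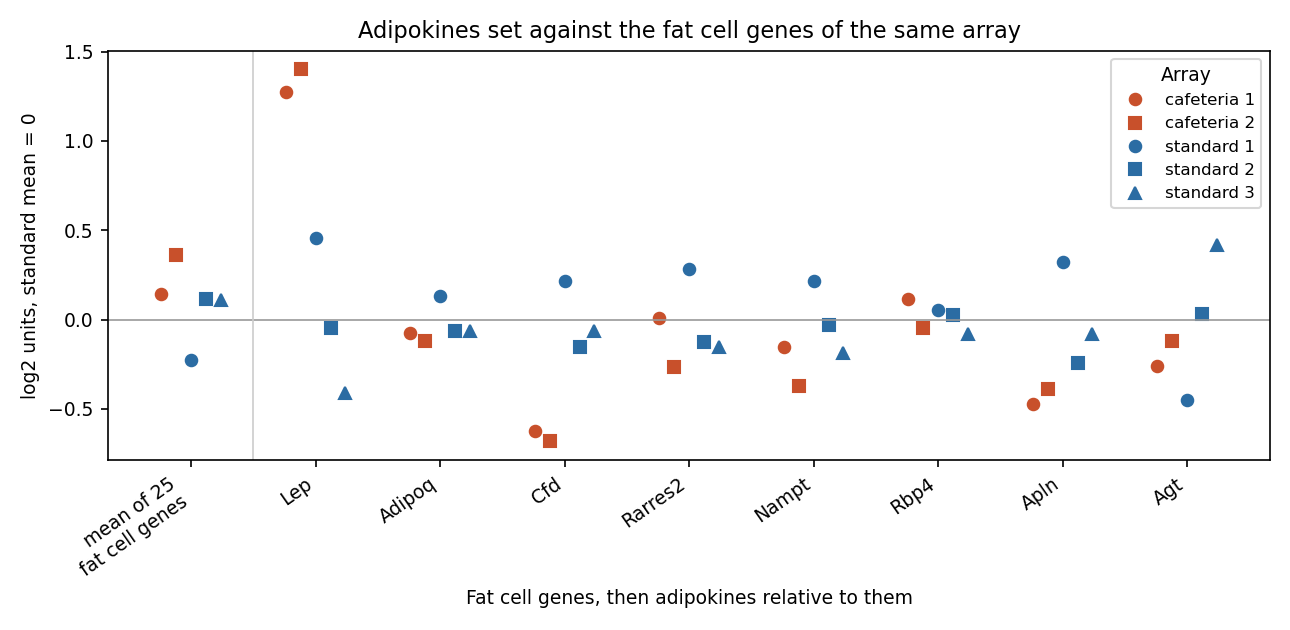
The first column gives the mean of 25 fat cell genes on each array, and the other columns give each adipokine (its brightest probe set) minus that mean, in log2 units with the standard group at 0. Lep stays at 1.28 and 1.40 in cafeteria samples, Cfd at -0.62 and -0.68, and Adipoq runs only from -0.12 to 0.13.

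Lep and Adipoq are often read as a ratio, so the difference between their log2 values was compared within each array. Relative to the standard mean it was 1.35 and 1.52 on the cafeteria arrays and 0.33, 0.02 and -0.34 on the standard arrays. The ratio was 2.70-fold higher in cafeteria samples (1.43 ± 0.12 SD, n = 2, against a standard SD of 0.34, n = 3; exact permutation p = 0.1, two-sided). It ranged from 1.26 to 1.60 with single arrays left out. Against Cfd the Lep value stood 1.99 higher in cafeteria samples, a 3.97-fold higher ratio. Over the 9 pairings of Lep with another adipokine probe set, Benjamini-Hochberg adjusted exact permutation p ran from 0.1125 to 0.2. All pairings share the same Lep values, whose gap of 1.19 between diets exceeds the whole range of every partner except Agt (1.20), so they are not separate results.

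Receptors and carriers of the adipokines were read from a fixed list of 15 genes, of which 14 were on the array and 12 passed the filter. At an unadjusted p under 0.05, 1 was higher and 2 were lower, and 0 passed the adjusted test, as was so for every list that follows (counts below 0.05 are unadjusted, against the 6.05% and 6.62% above). Their median difference was -0.14. Without standard replicate 1 the counts were 0 and 1. With that array left out, 9.52% of all probe sets tested lay under 0.05, against 12.7%. A gene of any list can thus lose that level with little change in its difference. The leptin receptor (Lepr) read 5.71 and 5.57 in cafeteria and 6.58, 6.20 and 6.10 in standard samples on its brightest probe set, a difference of -0.66 ± 0.17 (SE; limma, adjusted p = 0.295), and -0.51 without standard replicate 1. The arrays of the diets were apart there. Lepr has 7 probe sets, of which 3 passed the filter. The other 2 of these gave -0.46 ± 0.28 and -0.41 ± 0.24 with overlapping arrays.

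The adiponectin receptor Adipor2, which acts through PPAR alpha, read 9.54 and 9.96 in cafeteria and 9.32, 9.39 and 9.18 in standard samples, a difference of 0.46 ± 0.15 (SE; limma, adjusted p = 0.354). All 3 Adipor2 probe sets had both cafeteria arrays above all standard arrays, and the other 2 gave 0.54 ± 0.15 and 0.81 ± 0.11. Adipor1, the receptor that acts through AMP kinase, differed by 0.07 ± 0.07 with overlapping arrays. Cap1, reported to bind resistin, differed by -0.16 ± 0.05, the second lower gene.

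The chemerin receptor Cmklr1 gave -0.13 ± 0.22 and the apelin receptor Aplnr -0.36 ± 0.37. Angiotensin receptor Agtr1a gave -0.22 ± 0.14. The arrays of the diets overlapped for each of these. Endothelial genes, the vessel cells in which Aplnr is known to be made, differed by -0.45 in list mean, and their part in the Aplnr value was not tested.

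Inside the leptin signalling list of 11 genes, all past the filter, 0 were higher and 0 lower at an unadjusted p under 0.05, and the median difference was -0.06. Stat3, the transcription factor that leptin's receptor activates, read 7.41 and 9.19 in cafeteria and 9.34, 9.67 and 9.55 in standard samples. The low value of cafeteria replicate 1 made its difference of -1.22 ± 0.56 (SE) uncertain. A dimmer Stat3 probe set, which the counts of genes do not use, gave -0.49 ± 0.08. The diets were apart on both probe sets. Socs3, a brake on leptin signalling, had the identical value of 5.32 on all 5 arrays, below the array medians. That is a tie like those described for Nampt, so it does not show whether Socs3 differed.

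For folding and secretion of adiponectin and its signalling, 2 of 8 tested genes were higher at an unadjusted p under 0.05 and 0 lower, with a median of 0.14. These were Erp44, which retains adiponectin in the endoplasmic reticulum, by 0.17 ± 0.06, and Gstk1 (DsbA-L), which aids its assembly, by 0.16 ± 0.06. Of them only Erp44 stayed under 0.05 without standard replicate 1 (0.21, against 0.13 for Gstk1). The other Erp44 probe sets gave 0.13 ± 0.21 and -0.0068 ± 0.17.

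The partners of Cfd in the alternative complement pathway gave 0 higher and 2 lower of 6 tested, Cfd included, with a median of -0.28. C5ar1, a receptor for complement fragment C5a on myeloid cells, read 8.64 and 8.31 in cafeteria and 9.09, 9.21 and 8.77 in standard samples, a difference of -0.55 ± 0.18 (-0.52 without standard replicate 1, where Cfd alone of the list stayed under that level). C3, the central component, gave -0.54 ± 0.44 with overlapping arrays. Masp1, whose gene also encodes the protease that activates pro-factor D, read higher by 0.32 ± 0.14 (7.07 and 7.43 against 6.82, 6.91 and 7.05; limma, adjusted p = 0.443). Macrophage genes also read lower in cafeteria samples, by 0.27 in list mean (-0.27), and their part was not tested.

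Around Nampt, the list of NAD salvage and use had 3 higher and 0 lower of 10 tested, with a median of 0.02. These were Nnmt, which methylates nicotinamide, by 0.25 ± 0.06 (9.95 and 10.09 against 9.80, 9.78 and 9.74), Nmrk1, a nicotinamide riboside kinase, by 0.24 ± 0.07, and the mitochondrial sirtuin Sirt3 by 0.16 ± 0.06. Without standard replicate 1 Sirt3 was no longer under 0.05, though its difference, 0.15, was nearly the same.

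Around Agt, 1 gene of the renin-angiotensin system was higher and 2 were lower of 9 tested, with a median of 0.00070. Enpep, aminopeptidase A, which trims angiotensin II, read 8.89 and 9.04 in cafeteria and 9.57, 9.97 and 9.80 in standard samples, a difference of -0.82 ± 0.14 (SE; limma, adjusted p = 0.246). Another Enpep probe set did not share this difference (-0.02 ± 0.08). The angiotensin converting enzyme Ace read 7.63 and 7.20 against 7.88, 8.33 and 8.08, a difference of -0.69 ± 0.19, with -0.35 ± 0.06 on its second probe set. The diets were apart on both Ace probe sets. Mme, neprilysin, which degrades many small peptides, read higher by 0.53 ± 0.13.

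Among genes that handle retinoids, the cargo of Rbp4, 0 were higher and 3 lower of 14 tested, with a median of 0.04. Lrat, which esterifies retinol for storage, read 6.06 and 5.28 in cafeteria and 7.26, 6.78 and 6.48 in standard samples, a difference of -1.17 ± 0.34. Cyp26b1, which degrades retinoic acid, gave -0.84 ± 0.27 and its second probe set -0.41 ± 0.16. The retinoic acid receptor Rarb gave -0.49 ± 0.14. Without standard replicate 1 the values were -0.96, -0.62 and -0.38, and Lrat was no longer under an unadjusted p of 0.05.

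Of the other adipokines, 22 tested genes gave 4 higher and 0 lower at an unadjusted p under 0.05, with a median of 0.11. Fgf21, a metabolic hormone made mainly by liver, read 5.27 and 5.43 against 4.85, 4.85 and 4.69, a difference of 0.55 ± 0.09 at a level below the array medians. Tnf gave 0.25 ± 0.05, also at a low level, and its dimmer probe set, which did not pass the filter, gave -0.21. Fbn1, the precursor of asprosin, gave 0.30 ± 0.09 and 0.36 ± 0.13 on its 2 probe sets. Lpl, the lipase of vessel walls that feeds fat cells, gave 0.30 ± 0.09, and stands on the fat cell list too. Without standard replicate 1 the Fbn1 difference was 0.24, no longer under an unadjusted p of 0.05.

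Among known regulators of adipokine genes, 14 were tested, with 1 higher, 1 lower and a median of -0.00034. Insig1, a sterol sensor and PPAR gamma target, read 12.10 and 12.33 against 11.14, 11.76 and 11.29, a difference of 0.82 ± 0.22. Sp1, a general activator, gave -0.30 ± 0.07, and from -0.51 to -0.09 on its other 4 probe sets. Its motif GGGCGG occurred in the Lep, Cfd, Rbp4, Apln and Retn windows, and TTGCNNAA in those of Lep and Rbp4. No link of these motifs to the levels was tested. Cebpa, of the family that binds TTGCNNAA, gave 0.27 ± 0.11 (limma, adjusted p = 0.407), with 0.18 to 0.54 on its other 4 probe sets. Cebpb gave 0.30 ± 0.14. Both lay higher on the cafeteria arrays with the diets apart on the brightest probe set, and neither reached an unadjusted p of 0.05.

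**Figure D4:**
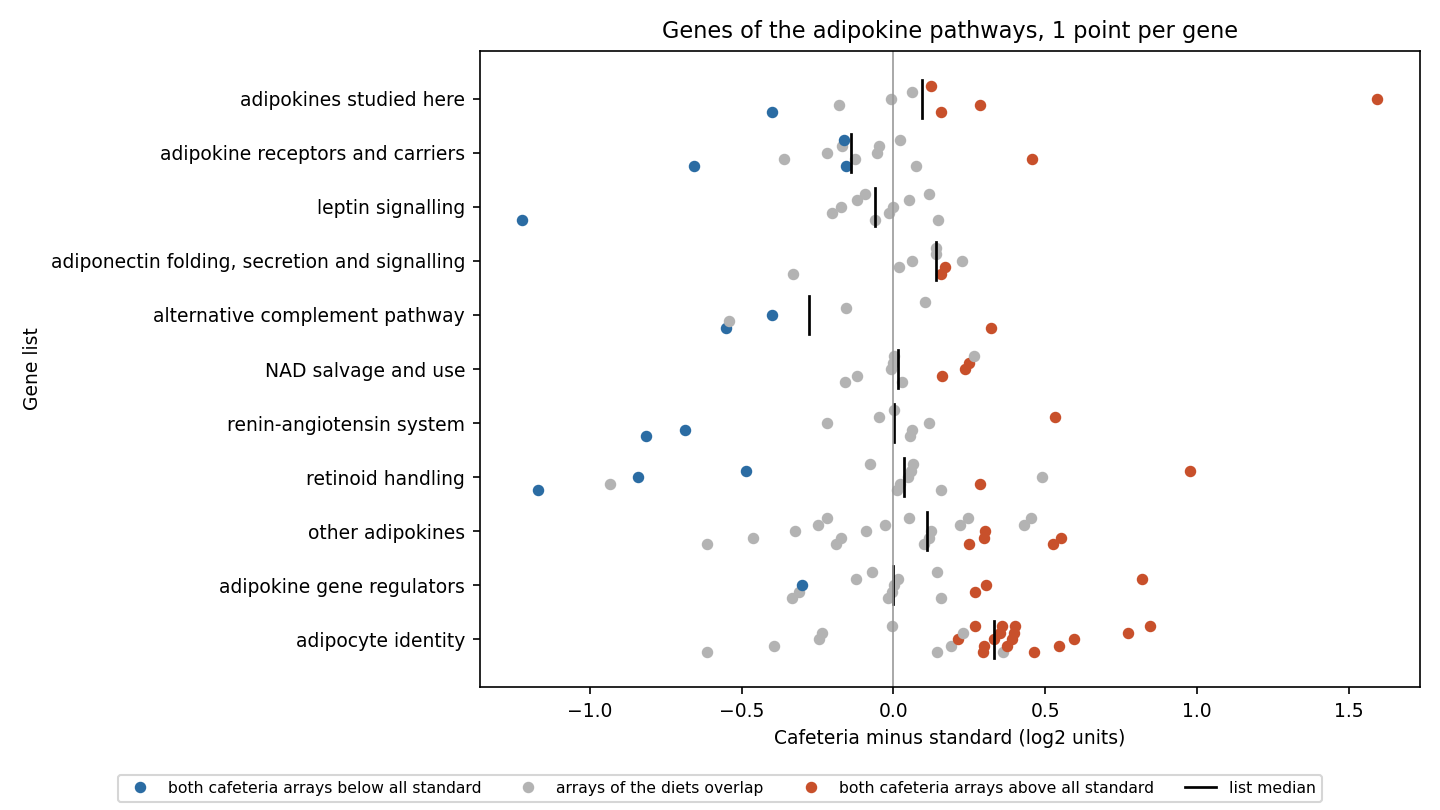
Each point is the brightest probe set of 1 gene past the filter, placed by its difference between diets in log2 units and coloured by whether the arrays of the diets are apart; black bars are list medians. The marker lists of other cell types are not drawn; among the genes drawn, Lep, at 1.59, is the point farthest right and Stat3, at -1.22, the farthest left.

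The genes whose profiles over the 5 arrays were most like an adipokine were found by the root mean square difference after each profile was centred on its own mean. For Lep they were Ldb3, a protein of muscle Z discs, at 0.11 log2 units, Sync, a partner of intermediate filaments, at 0.17, and Akr1c3, an aldo-keto reductase, at 0.19, while Lep itself varied by 0.81 about its mean. Ldb3 read 7.62 and 8.08 in cafeteria and 6.52, 6.31 and 6.23 in standard samples. For Cfd they were St6gal1 (0.02), Khnyn (0.02) and Mmrn1 (0.02), against 0.20 for Cfd about its own mean. For Rbp4 they were Dolk, Map6 and Ehd1, for Rarres2 Ghitm, Vcf2 and Spmap2, and for Adipoq Lrp3, Eci1 and Atp7b. The likeness rests on only 5 arrays and is a description.

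**Figure D5:**
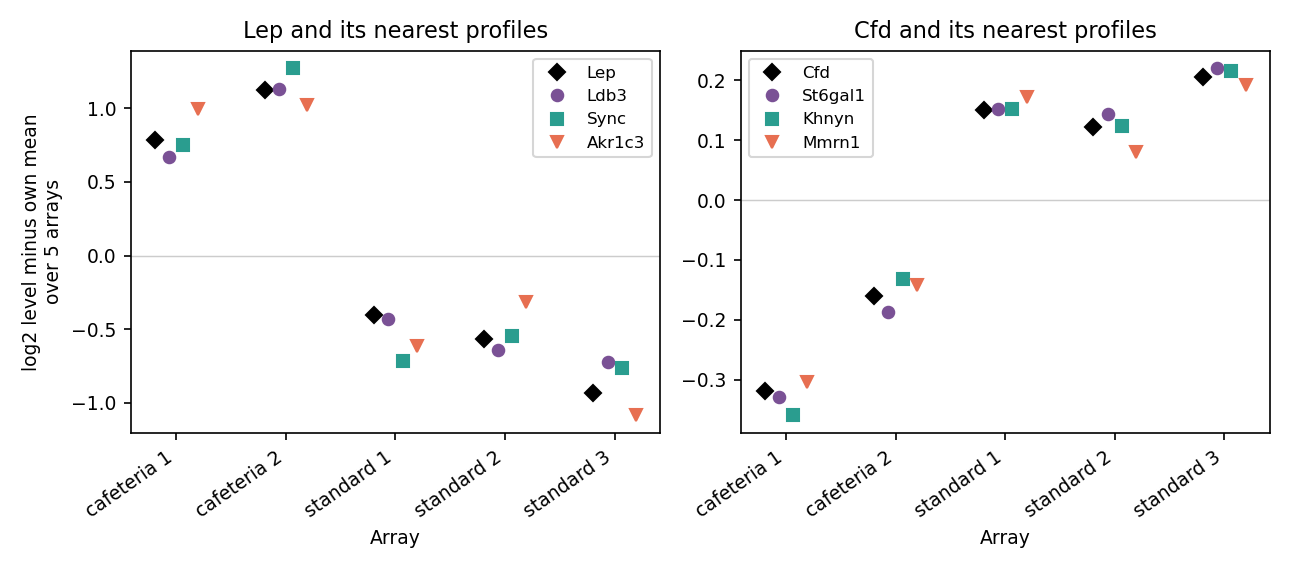
Points give the log2 level on each array minus the gene's own mean over the 5 arrays, for Lep and Cfd (black) and the 3 genes nearest to each. Lep varies by 0.81 log2 units about its mean and Cfd by 0.20, so the panels have different vertical scales; both cafeteria arrays are positive for Lep and its 3 nearest genes and negative for Cfd and its 3.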

How the data were processed

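Fat of 5 rats was measured on Affymetrix rat genome arrays. The deposited values are log2 levels per probe set; the submitters' processing notes name RMA and affy, without versions. RMA makes array distributions alike, which can hide a shift of most transcripts. The sources used here give no other step.

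From these, 57 of 31099 probe sets, the array controls, were left out, and the 21729 with a mean above the 30th percentile were fitted by diet in limma (version 3.58.1, lmFit then eBayes; R 4.3.3), as the cafeteria mean less the standard mean (two-sided, 3 residual degrees of freedom, Benjamini-Hochberg adjustment over all probe sets, called at 0.05). Symbols came from GEO's platform annotation, which names 20826 probe sets by 1 symbol and 436 by several, and leaves 9780 unnamed; the 8 measured adipokines matched the RefSeq gene table by gene identifier. A listed gene is represented by its brightest probe set. Up to 4 genes of each pathway list were named, by smallest p, and Lepr, Adipor1, Adipor2, Cmklr1, Aplnr, Agtr1a and Ace always; for each adipokine whose diets were apart, the 3 nearest profiles. Socs3 and the fat cell genes Fabp4, Plin1, Plin4, Mgll, Gpd1, Acaca, Acly, Fasn and Slc2a4 were named after their values were seen. Single values used exact permutation over the 10 divisions of the arrays. Members and lists were chosen with earlier results of these data known. The fit was run on simulated data with independent normal noise and no ties. That setting differs from these arrays, so the run does not test the p-values given here. The number of arrays limits the precision, and p-values measure the spread between these samples. Alternatives were other filters, normalizations, variance models, array weights, a replicate block, an acinar covariate and leaving out each array. Promoters are from RefSeq, GRCr8. Figures used matplotlib 3.10.9 in Python 3.11.15.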

Additional observations from a re-analysis of the deposited data

How the results depend on the processing

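Of the 15 alternatives to the fit, the other filters and variance models cannot alter a difference itself, only its p-value. The replicate block gave the same difference as leaving out standard replicate 3 (1.44 for Lep), so it adds no separate check. With that limit, Lep, Adipoq, Cfd, Rarres2, Rbp4 and the brighter Apln probe set kept their direction in all 15. Of the alternatives, 0 called an adipokine (limma, lowest adjusted p 0.157, for Lep). The count of probe sets called was 0 under each of them, while the count at an unadjusted p under 0.05 ran from 1874 without moderation to 4171 without cafeteria replicate 1, against 2754; the smallest adjusted p was 0.062, with a filter at the 50th percentile.

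Adipokine probe sets higher at an unadjusted p under 0.05 were 2 in place of 1 with that filter and with quantile normalization. So were they with the acinar covariate and without standard replicate 2. The share of all probe sets tested under 0.05, in either direction, was 14.5%, 12.8%, 9.88% and 9.12% in that order, against 12.7%. Those lower stayed at 1 with any standard array left out. Probe sets with the diets apart were 4 higher and 1 to 2 lower with 1 standard array left out. They were 3 higher, against 4, with quantile normalization and with cyclic loess. Fewer arrays come apart more easily, and the share over all probe sets was not computed in these settings. These counts are therefore not a result about the adipokines.

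Direction turned for values near 0. The brighter Nampt probe set gave 0.029 with quantile normalization, 0.0038 with cyclic loess and -0.048 to 0.035 with single arrays left out. The dimmer one gave -0.061 with the replicate block and -0.061 to 0.10 with single arrays left out. The dimmer Apln probe set gave 0.0041 with quantile normalization and -0.20 to 0.10 with single arrays left out. Agt gave -0.23 with the acinar covariate and -0.27 to 0.33 with single arrays left out. Relative to the fat cell genes, with single arrays left out, Rarres2 ran from -0.27 to 0.011, Rbp4 from -0.049 to 0.11 and Agt from -0.41 to 0.017. The cause was not tested. All 25 fat cell genes passed the filter, so using only those that pass changes nothing.

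The labels number the replicates in both groups but do not say that a number marks a shared source. The numbers were therefore not taken as pairs. Deviations from the group means correlated at 0.08 between the arrays numbered 1 and at -0.04 between those numbered 2. With 2 cafeteria arrays their deviations mirror each other, so these values can neither show nor exclude pairing. With the replicate block Lep differed by 1.44 and Cfd by -0.38, and no call changed.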
